A study of Mus musculus with 6 samples.

Results

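The glycolysis and hypoxia response genes described here are 35 genes chosen by symbol: 3 of the oxygen sensing pathway, 10 target genes of the hypoxia inducible factor HIF, 3 transporters of glucose and lactate, 15 genes of glycolysis enzymes and 4 regulators of carbon flow. Of them, 32 had a probe set that the platform annotation assigns to exactly 1 gene symbol, out of 18193 genes with such a probe set. Each gene was represented by its probe set with the highest mean log2 signal. For Gapdh that was one of the array's own control probe sets, so its signal is described but it entered no test, which leaves 31 members. All 31 passed the filter on dim probe sets. Bnip3l, Gpi1 and Eno1 had no probe set of 1 symbol; the probe sets of Bnip3l also name a pseudogene.

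The study hybridised RNA of cultured mouse CD4+ T cells, taken from spleen with peripheral and mesenteric lymph nodes, to 6 arrays. The 3 groups of 2 arrays were labelled Control, RA and Ro. RA was read as retinoic acid from the series title. Ro (RO in 1 sample title) is left unexplained, and doses, strain, sex and age are not given. A culture recipe is given for Control replicate 2 alone: human IL2 and TGFb1, mouse IL6, IL1b, IL23, IL21 and TNFa, and antibodies to IL4 and IFNg, for 5 days. Whether the other 5 arrays shared this medium, what vehicle the Control cells received, and whether the arrays of a group came from separate cultures or animals are not given. The p-values below therefore measure only the spread between these arrays, which may be technical. In bulk RNA, fewer cells of a type and less RNA per cell cannot be told apart.

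HIF is a transcription factor whose alpha subunit, encoded by Hif1a, is made continuously and destroyed when oxygen is present. Prolyl hydroxylases of the Egln family use oxygen to mark the subunit for the VHL ubiquitin ligase; when oxygen is short the subunit persists, pairs with Arnt and binds short DNA elements with the core ACGTG or GCGTG near its targets. Those targets take up glucose, carry it through glycolysis to lactate and hold pyruvate back from the mitochondrion. Activated T cells also turn to glycolysis when oxygen is present, and HIF is known to support it in the Th17 lineage.

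The promoters of 5 members are shown because the results below turn on 3 of them (Bnip3, P4ha2 and Egln3) and because Pgk1 and Ldha, 2 enzymes of glycolysis, carry several copies of the core. The windows come from RefSeq (GRCm38.p6) and run from 250 bases before to 50 after the start of the gene, 5′ to 3′ on the gene's strand. Capitals mark ACGTG or its reverse complement CACGT; where they overlap they read CACGTG. Bnip3 lies at chr7:138909457-138909756 on the minus strand, P4ha2 at chr11:54100674-54100973 on the plus strand, Egln3 at chr12:54203825-54204124 on the minus strand, Pgk1 at chrX:106186850-106187149 on the plus strand and Ldha at chr7:46845554-46845853 on the plus strand.
Bnip3: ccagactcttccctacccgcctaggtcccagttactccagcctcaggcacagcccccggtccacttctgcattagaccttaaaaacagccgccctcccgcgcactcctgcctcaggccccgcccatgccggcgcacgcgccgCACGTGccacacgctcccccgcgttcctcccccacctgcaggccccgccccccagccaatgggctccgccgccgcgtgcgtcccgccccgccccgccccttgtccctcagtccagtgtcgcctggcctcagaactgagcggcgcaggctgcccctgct
P4ha2: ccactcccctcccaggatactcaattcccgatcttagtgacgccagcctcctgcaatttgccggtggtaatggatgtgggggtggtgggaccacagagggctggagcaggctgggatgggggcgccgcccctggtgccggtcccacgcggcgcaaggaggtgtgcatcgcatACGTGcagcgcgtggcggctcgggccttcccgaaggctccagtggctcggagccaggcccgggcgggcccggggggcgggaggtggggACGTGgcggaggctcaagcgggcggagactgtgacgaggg
Egln3: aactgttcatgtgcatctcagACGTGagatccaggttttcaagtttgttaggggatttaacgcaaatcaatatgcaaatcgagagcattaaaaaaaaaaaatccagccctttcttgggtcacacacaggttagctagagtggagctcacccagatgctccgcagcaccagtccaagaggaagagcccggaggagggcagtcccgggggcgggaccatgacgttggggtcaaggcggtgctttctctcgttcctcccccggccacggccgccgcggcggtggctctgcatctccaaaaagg
Pgk1: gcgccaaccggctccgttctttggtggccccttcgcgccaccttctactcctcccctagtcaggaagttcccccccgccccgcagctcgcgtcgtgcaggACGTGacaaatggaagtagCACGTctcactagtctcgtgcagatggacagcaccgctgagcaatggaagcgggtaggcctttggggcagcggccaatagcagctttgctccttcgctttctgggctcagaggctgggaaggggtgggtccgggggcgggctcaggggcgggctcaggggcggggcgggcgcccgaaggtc
Ldha: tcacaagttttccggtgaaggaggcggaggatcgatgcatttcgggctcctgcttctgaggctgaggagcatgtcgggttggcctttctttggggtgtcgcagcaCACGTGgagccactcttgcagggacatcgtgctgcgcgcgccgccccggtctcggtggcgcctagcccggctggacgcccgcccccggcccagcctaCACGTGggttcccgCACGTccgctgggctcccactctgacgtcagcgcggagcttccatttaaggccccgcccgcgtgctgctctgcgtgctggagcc

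Windows of 300 bases were found for 32 of the 35 members, 47 windows in all, and for none of Bnip3l, Ndrg1 and Slc2a3. ACGTG on either strand occurred in a window of 23 of these 32 genes (71.9%), against 21.8% of all 27025 genes with such windows. GCGTG occurred for 22 of them (68.8%), against 35.2% of all genes. By window, the shares were 57.4% against 19.6% for ACGTG and 57.4% against 32.4% for GCGTG. The Ldha window above held 5 matches, counting each CACGTG once per strand. The Hif1a window and 1 Pfkm window held 3 each, and the windows shown for Bnip3, P4ha2 and Pgk1 held 2 each. Hk1, Hk2, Pfkfb3 and Slc16a3 each also had a window with 2. No ACGTG was in the windows of Adm, Eno1, Eno2, Gpi1, Pdk1, Pfkfb4, Pfkl, Pfkp and Tpi1, which says only that these letters are not in these windows. A match is a description of the sequence and not a measured binding site.

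Signals were multiplied so that all arrays shared 1 median, and a value below is this scaled signal in arbitrary units, which can be compared between arrays for a gene but not between genes. Control replicate 2 stood apart over the probe sets that passed the filter. Its log2 values correlated with those of the other 5 arrays at 0.868 to 0.878, against 0.947 to 0.970 among those 5. The T cell identity list (11 of 12 genes with a probe set, all of which passed the filter) summed to 31130 to 39006 on the 6 arrays, but 6 of its 11 genes were lowest on Control replicate 2. Of all tested probe sets, 38.7% were lowest there. Cd4 had 566 there against 1088 to 1656, Cd28 1487 against 2846 to 3823 and Cd247 1165 against 2180 to 3063, while Thy1 had 9223 against 2962 to 4322. Over the 6 arrays, the B cell list summed to 82.2 to 150 and the CD8 list to 83.7 to 171. The NK cell list summed to 100 to 266, the dendritic cell list to 51.3 to 79.6 and the erythroid list to 3.21 to 14.1. The monocyte and macrophage list summed to 165 on Control replicate 2, 1352 on Control replicate 1 and 334 to 961 on the others. Of its 6 genes, 3 were lowest and 1 highest on Control replicate 2, against 38.7% and 26.5%. Its member Lyz2 had 11.7 there, against 148 to 1076. On Control replicate 2, 17 of 23 cell cycle genes were lowest of the 6 arrays, against the 38.7% above. Their summed signal was 14612 there, against 22108 to 61365 elsewhere. The granulocyte, mast cell and basophil list summed to 227 there, against 1397 to 5875. Of its 10 genes, 8 were lowest of the 6 arrays there, again against 38.7%. Its member Kit ran the other way, at 146 on Control replicate 2 against 28.1 to 96.0, and made up most of that sum. The ratio of the 3′ to the 5′ control probe set was 1.20 for beta-actin and 0.986 for Gapdh on that array, against 1.08 to 1.12 and 0.787 to 0.842. The part of these differences in the results below was not tested.

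The largest pattern among the members lay within the Control group. Control replicate 2 gave the highest signal of the 6 arrays for 26 of 31 members (83.9%), against 26.5% of all 29531 tested probe sets. For 18 members (58.1%) its signal was at least 2-fold above every other array, against 4.69% of all tested probe sets. Of the 16 members at or above the members' median level, 14 were highest there and 9 at least 2-fold above every other array, against 30.7% and 3.53% of the 4903 probe sets at or above that level. With quantile normalization 28 members were highest there and 16 at least 2-fold above, against 31.9% and 6.48%. Of all 69 probe sets of the members, 59 were higher on Control replicate 2 than on Control replicate 1, against 47.6% of all tested probe sets. For 17 of the 20 genes with over 1 probe set, the probe sets shared their direction. Since 1 array carries the pattern, it has no replicate and no test.

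**Figure D1:**
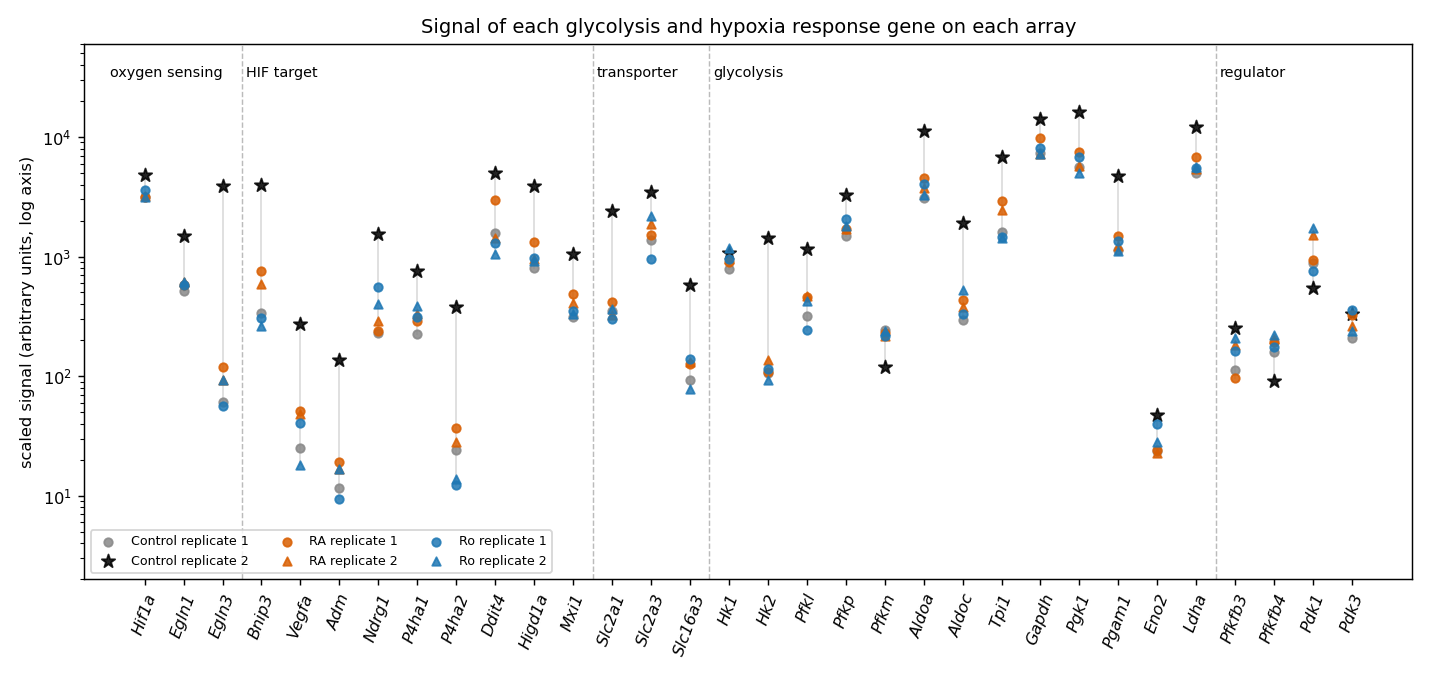
Scaled signal (log axis, arbitrary units) of the 32 members with a probe set on each of the 6 arrays, ordered by role; 1 symbol is 1 array and grey lines span the range. Control replicate 2 (black star) is the top point for most genes, from Hif1a (4768) to Ldha (12136), and the bottom point for Pfkm, Pfkfb4 and Pdk1.

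All 3 oxygen sensing genes were highest on Control replicate 2, but by very different margins. Hif1a had 3138 and 4768 in Control, 3122 and 3223 in RA, and 3613 and 3167 in Ro (replicates 1 and 2 in turn). The RA and Ro arrays differed little from Control replicate 1, and Control replicate 2 exceeded the next array by 1.32-fold. Egln1, the main hydroxylase acting on HIF, had 1496 on Control replicate 2 against 514 to 612 on the other 5 arrays. Egln3, a hydroxylase that is itself a HIF target, had 60.6 and 3861 (Control), 119 and 92.6 (RA), and 55.8 and 92.4 (Ro). This was the widest gap of any member, 32.3-fold over the next array and 63.8-fold over the other Control array.

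Every one of the 9 HIF targets with a probe set of 1 symbol was highest on Control replicate 2, 7 of them at least 2-fold above the next array. Bnip3, a mitochondrial protein that promotes removal of mitochondria, had 340 and 3977 (Control), 755 and 591 (RA), and 305 and 262 (Ro). P4ha2, a collagen prolyl hydroxylase subunit, had 23.9 and 380, 36.9 and 27.9, and 12.2 and 13.7 in the same order. For both genes, Control replicate 2 was highest, the RA arrays followed and the Ro arrays were lowest. Vegfa, the vascular growth factor, had 25.2 and 270, 51.0 and 48.0, and 40.8 and 18.0. Ddit4, an inhibitor of mTOR signalling, had 1569 and 4978, 2990 and 1417, and 1294 and 1047. Here RA replicate 1 was well above RA replicate 2, which itself lay below Control replicate 1. Ndrg1, a stress response gene, had 231 and 1533, 238 and 288, and 557 and 403. For Ndrg1 the Ro arrays came second. Of the remaining targets, Adm, which encodes a vasodilator peptide, had 135 on Control replicate 2 against 9.41 to 19.0, and Higd1a, a mitochondrial protein of the respiratory chain, had 3864 against 795 to 1316. P4ha1, the sister subunit of P4ha2, had 761 against 224 to 387. Mxi1, a partner of Max that opposes Myc, had 1053 against 313 to 482. The probe sets that name both Bnip3l and a pseudogene did not share the pattern evenly. They had 2473, 954 and 351 on Control replicate 2, against 1784 to 2255, 1135 to 1465 and 329 to 504.

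Among the transporters, Slc2a1, the glucose carrier GLUT1, had 347 and 2421 (Control), 414 and 326 (RA), and 300 and 364 (Ro). Slc16a3, which exports lactate, had 574 on Control replicate 2 against 77.6 to 138 elsewhere. Slc2a3, the glucose carrier GLUT3, had 3437 against 958 to 2164, with the Ro arrays at the 2 ends of that range. The first 2 therefore exceeded every other array by 5.85-fold and 4.16-fold, and Slc2a3 by 1.59-fold. Another bright probe set of Slc2a3 had 2363 on Control replicate 2 against 490 to 1059. Its dim ones had 18.1 and 19.2 there, against 18.3 to 38.1 and 8.07 to 31.2.

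Control replicate 2 was highest for 10 of the 12 tested glycolysis enzymes, and the exceptions were isoforms at 2 early steps. At the hexokinase step, Hk2 had 106 and 1435 (Control), 109 and 136 (RA), and 115 and 92.0 (Ro), a 10.5-fold gap to the next array. Hk1, the constitutive isoform, had 1075 on Control replicate 2 and lay within the span of 782 to 1173 set by the other arrays. Its other probe set was lowest on Control replicate 2, at 149 against 246 to 341. The phosphofructokinase isoforms parted in the same way: Pfkl had 316 and 1156, 461 and 463, and 243 and 422, and Pfkp had 3242 on Control replicate 2 against 1482 to 2077. Pfkm, the muscle isoform, had 120 on Control replicate 2, lowest of the 6 arrays, against 215 to 242.

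Further down the pathway, Aldoa and Aldoc, the 2 aldolases, had 11291 and 1915 on Control replicate 2 against 3091 to 4558 and 292 to 520. Tpi1, triose phosphate isomerase, had 1611 and 6845 (Control), 2897 and 2427 (RA), and 1461 and 1431 (Ro). The 5′ control probe set of Gapdh, whose gene encodes glyceraldehyde phosphate dehydrogenase, had 14048 against 7164 to 9811. For this set the gap to the next array was 1.43-fold, narrower than for Tpi1 (2.36-fold). The 3′ and middle sets of Gapdh had 13857 against 5761 to 7843 and 15165 against 6761 to 8935. Pgk1, phosphoglycerate kinase, had 16143 against 5012 to 7484, and Pgam1, phosphoglycerate mutase, had 4754 against 1103 to 1493. Ldha, which turns pyruvate into lactate, had 12136 against 5016 to 6832. Eno2, the neuronal enolase isoform, lay near the array median of 19.8, at 47.1 against 22.6 to 39.9.

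Of the 4 regulators, 1 was highest on Control replicate 2 and 0 were at least 2-fold above every other array there. Pdk1, a kinase that shuts the pyruvate dehydrogenase complex and is known as a HIF target, had 882 and 542 (Control), 943 and 1509 (RA), and 750 and 1724 (Ro). Control replicate 2 was thus its lowest array, as for Pfkfb4, a bifunctional enzyme that sets a fructose bisphosphate activator of phosphofructokinase, with 90.6 against 158 to 220. Pfkfb3, the related enzyme and the 1 regulator highest there, had 252 on Control replicate 2 against 95.7 to 210. Pdk3 lay within the others, at 330 against 209 to 358. Control replicate 2 was lowest for 3 members in all (9.68%), Pdk1, Pfkfb4 and Pfkm, against 38.7% of all tested probe sets.

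**Figure D2:**
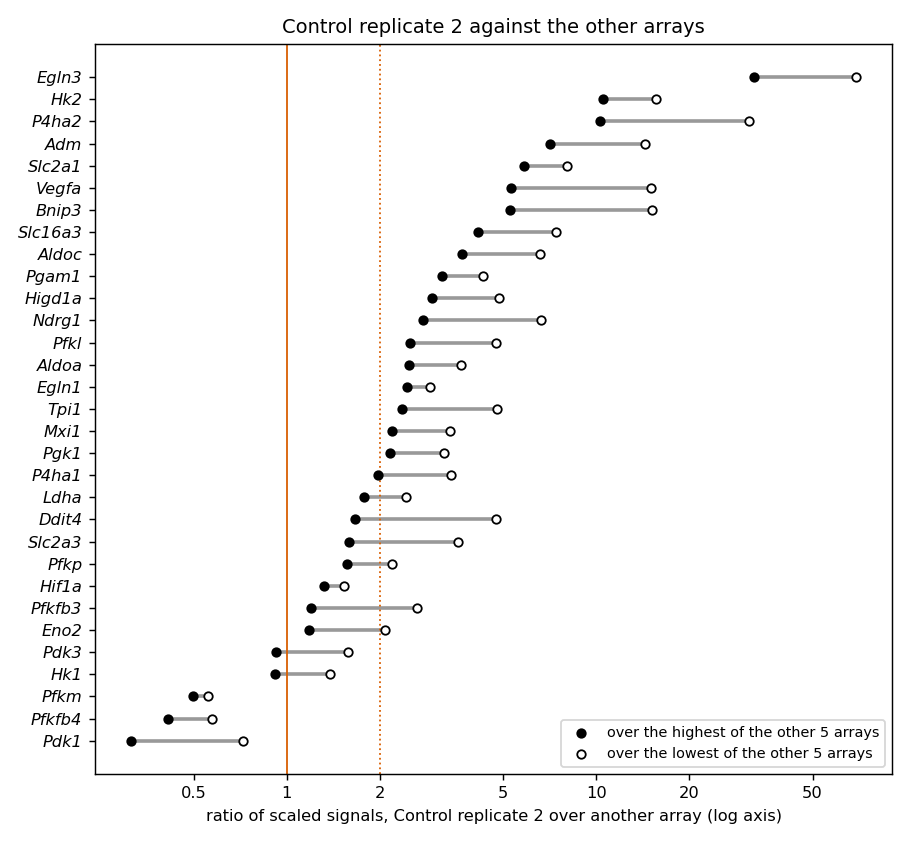
Ratio of the scaled signal on Control replicate 2 to the highest (filled) and the lowest (open) of the other 5 arrays for the 31 tested members, on a log axis. The solid line marks equality and the dotted line 2-fold; filled points lie to the right of equality for 26 members and at or beyond 2-fold for 18, with Egln3 at 32.3.

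Other genes of these pathways, from lists of textbook members, shared the pattern to different degrees. Of 21 tested further HIF targets, 17 were highest on Control replicate 2 and 11 at least 2-fold above every other array. The shares of all tested probe sets were 26.5% and 4.69%. The median log2 difference between the Control arrays was 1.66 for these 21 genes. The members' median was 1.75 and that of all tested probe sets -0.06. Named after their values were seen, Hilpda, a lipid droplet protein, had 1031 on Control replicate 2 and 74.2 on Control replicate 1. Plod2, a collagen lysyl hydroxylase, had 590 and 50.3, and Ero1l, an oxidase of the endoplasmic reticulum annotated as Ero1a, had 3796 and 425. The 18 tested further isoforms and branches of glycolysis had a median of 0.20. Of them, 9 were highest and 7 lowest on Control replicate 2, against 26.5% and 38.7% of all tested probe sets. The pyruvate kinase gene Pkm had 7751 against 2456, while the muscle enolase Eno3 had 171 against 698. The 6 pentose phosphate genes had a median of 0.36, the 16 citrate cycle genes 0.12 and the 14 HIF pathway regulators 0.53. On Control replicate 2, 0 pentose phosphate or citrate cycle genes exceeded every other array at least 2-fold, and 1 HIF pathway regulator did. At a share of 4.69%, lists this short hold few such genes, so these counts alone do not set the lists apart. Highest there were 1 of the 6 pentose phosphate genes, 4 of the 16 citrate cycle genes and 7 of the 14 regulators, against 26.5%.

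**Figure D3:**
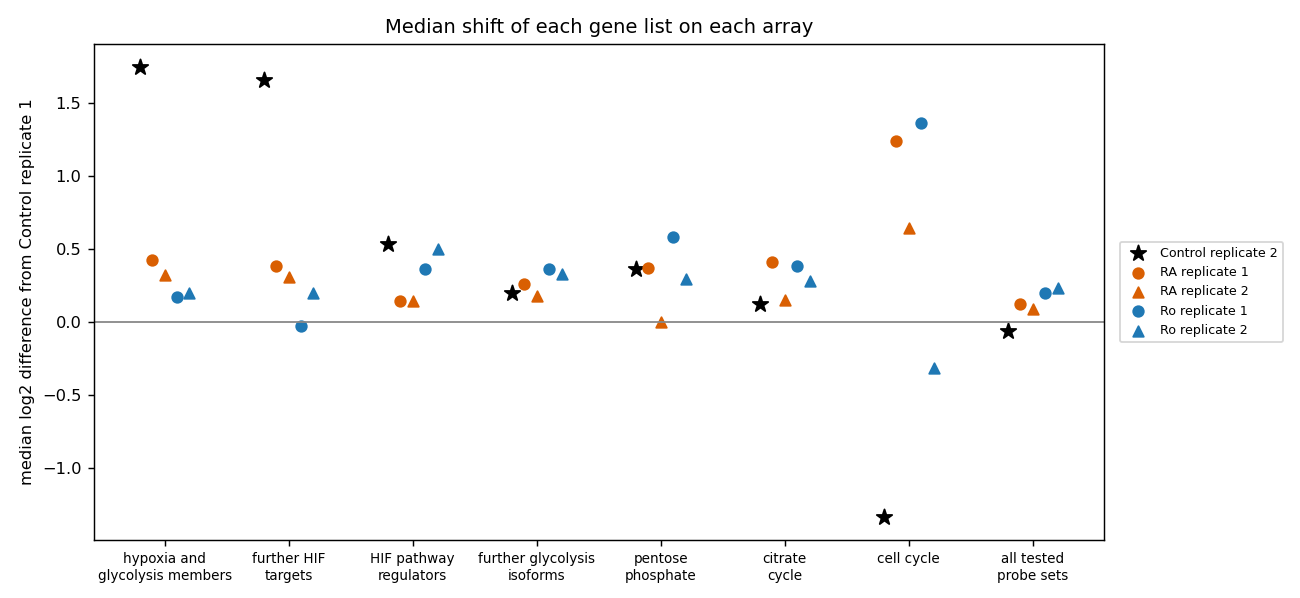
Median log2 difference of each gene list from Control replicate 1, for each of the other 5 arrays. Control replicate 2 (star) is at 1.75 for the members and 1.66 for further HIF targets, at 0.12 for the citrate cycle and at -1.34 for the cell cycle genes, while the RA and Ro arrays lie between -0.03 and 0.42 for the first 2 lists.

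RA was next compared with Ro. At their brightest probe sets, Bnip3, P4ha2, Tpi1, Ddit4, Vegfa, Egln3, Pfkl and Mxi1 were higher on both RA arrays than on both Ro arrays. Ndrg1, Eno2, Hk1 and Pfkp were lower on both. These are 8 members higher (25.8%) and 4 lower (12.9%) without overlap, against 9.35% and 27.3% of all tested probe sets. With a log2 difference of at least 0.5, 7 members were higher and 1 lower, against 5.27% and 11.3%. No difference passed the test: limma over all 6 arrays called 0 of 31 members and 0% of the 29531 probe sets at an adjusted p under 0.05, and at an unadjusted p under 0.05 it gave 0 members and 2.01% of the probe sets.

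By group, Bnip3 averaged 673 ± 117 in RA and 283 ± 30.2 in Ro (SD, n = 2), 2.38-fold. P4ha2 averaged 32.4 ± 6.34 and 13.0 ± 1.07, a 2.50-fold difference near the dim end of the array. Tpi1 averaged 2662 ± 332 and 1446 ± 21.6, 1.84-fold. All 3 gaps between the group means were larger than the SD of either group. Its 3 probe sets gave Tpi1 log2 differences of 0.87, 0.90 and 0.93. Bnip3 and P4ha2 had a single probe set each. The Ro values of P4ha2 lay below the array median of 19.8, its log2 difference of 1.14 was 0.67 with a pseudocount at the median, and it did not pass the stricter filter on dim probe sets.

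Ddit4 averaged 2204 ± 1112 in RA and 1170 ± 175 in Ro, so that the gap between means was smaller than the SD of the RA arrays. Vegfa averaged 49.5 ± 2.15 and 29.4 ± 16.1, and Pfkl 462 ± 0.837 and 333 ± 127, with Ro replicate 2 close to the RA arrays for Pfkl. Egln3 averaged 106 ± 19.0 and 74.1 ± 25.9, but RA replicate 2 (92.6) and Ro replicate 2 (92.4) were all but equal. The size of these differences depended on single arrays. The log2 difference of Ddit4 (0.82) was 0.28 without RA replicate 1 and 1.36 without RA replicate 2. Without Ro replicate 1 and without Ro replicate 2 in turn, that of Vegfa (0.79) was 1.32 and 0.26, that of Pfkl (0.52) 0.13 and 0.92, and that of Egln3 (0.53) 0.18 and 0.88. In the other direction, Ndrg1 averaged 263 ± 35.1 in RA and 480 ± 108 in Ro, 1.83-fold higher in Ro. All 5 of its probe sets were lower in RA, by log2 differences of -0.56 to -1.04. Ndrg1 therefore ran opposite to Bnip3 and P4ha2 in RA and Ro, although all 3 were highest on Control replicate 2.

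At their brightest probe sets, the remaining members differed little or overlapped. Mxi1 was higher in RA by 0.38 (log2), and Eno2, Hk1 and Pfkp had differences of -0.47, -0.19 and -0.19. The other probe set of Mxi1 gave 0.75 and that of Hk1 -0.31, both without overlap. For Pfkp the other probe sets ran the opposite way, at 0.38 (without overlap) and 0.55, so its direction was not settled. Hif1a had -0.09 (SE 0.30) at its brightest probe set, and 0.18, 0.81 and 0.52 at the other 3, so its direction was not settled. Slc2a1 had 0.15 (SE 0.81), Hk2 0.23 (SE 1.05), Pgk1 0.16 (SE 0.51) and Ldha 0.12 (SE 0.43), all with overlapping arrays. The other probe sets of Slc2a1 gave 0.27 and 0.36, both higher in RA without overlap. Those of Pgk1 gave 0.47, with overlap, and 1.0, without. Pdk1 had 0.07 (SE 0.49; -0.04 as deposited), and each group held 1 low and 1 high array. By role, the median log2 difference was 0.41 over the 9 HIF targets, 0.22 over the 3 transporters, 0.13 over the 12 glycolysis enzymes and 0.00 over the 4 regulators.

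Over all 31 members the median log2 difference was 0.15, against -0.11 over all tested probe sets, and 21 members were above 0 (67.7%), against 38.2%. The members' median was 0.04 without RA replicate 1 and 0.29 without RA replicate 2. The counts depended on how the arrays were scaled, which moved the median of all tested probe sets to 0.04 with a trimmed mean, 0.00 with quantile normalization and -0.21 as deposited. The members' median was then 0.31, 0.26 and 0.04, above that of all probe sets each time. With scaling to a trimmed mean, 16 members were higher and 2 lower without overlap (background 19.4% and 14.1%), and with quantile normalization also 16 and 2 (16.0% and 17.1%). As deposited, 7 were higher and 4 lower (6.83% and 33.8%).

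The spread of the 2 Control arrays enters the 6-array fit. Its SE for the Bnip3 difference of 1.23 was 0.99, and with the 4 RA and Ro arrays alone it was 0.25. That smaller fit called 0 of 31 members, 0.0287% of 27900 probe sets being called, at adjusted p. Before adjustment, limma then put 4 members (12.9%) under 0.05, against 5.86% of probe sets, namely Bnip3, Tpi1, Ndrg1 and P4ha2. Their limma adjusted p-values were 0.601 to 0.782. With Control replicate 2 alone left out, limma called 0 members and 0.0175% of probe sets, and put 4 members and 5.80% of probe sets under 0.05 before adjustment. An exact permutation test of 2 arrays against 2 cannot go below p = 0.333.

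**Figure D4:**
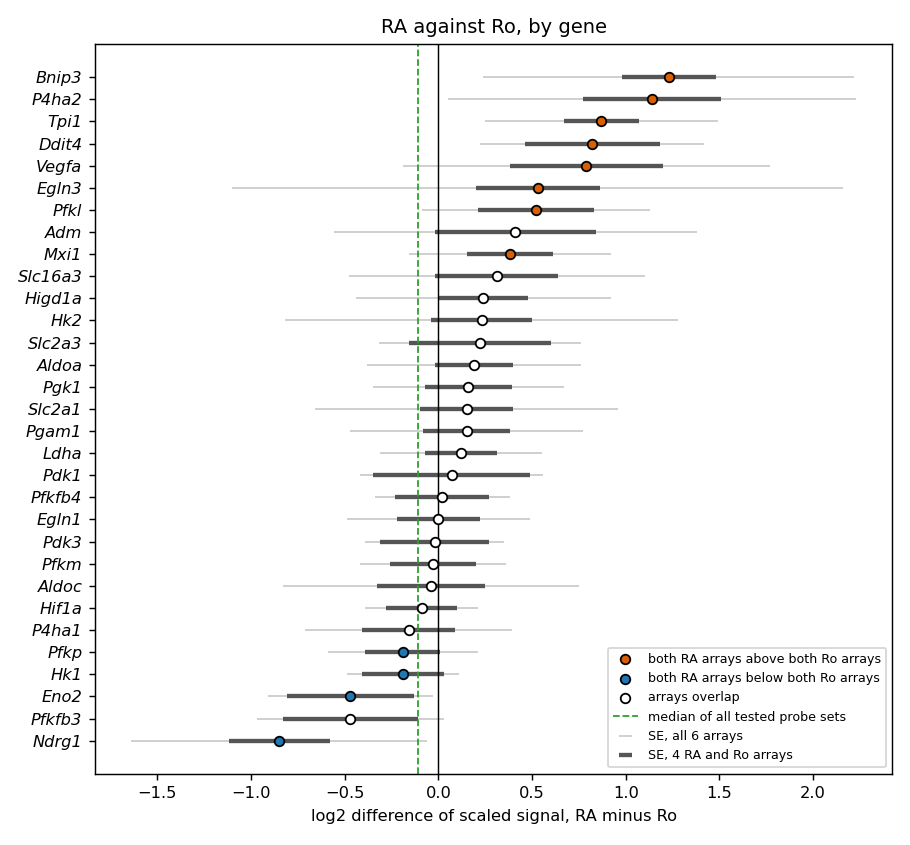
Log2 difference in scaled signal, RA minus Ro, for the 31 tested members, with the SE of limma from all 6 arrays (light bars) and from the 4 RA and Ro arrays (dark bars). Bnip3 (1.23) and P4ha2 (1.14) are at the top and Ndrg1 (-0.85) at the bottom; orange and blue points are members whose RA arrays lie above or below both Ro arrays, and the dashed line is the median of all tested probe sets (-0.11).

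Markers of other cells were set beside these values. Of 10 genes of the granulocyte, mast cell and basophil list, 6 were lower on both RA arrays than on both Ro arrays, against 27.3% of all tested probe sets, and the list's median log2 difference was -0.99. By limma over the 6 arrays, 0 of the 10 were called and 1 was under 0.05 before adjustment, against 0% and 2.01% of all tested probe sets. The summed signal of this list was 1938 and 1397 for RA, and 5875 and 3447 for Ro. Of the 23 cell cycle genes, 0 were higher and 0 lower in RA without overlap, against 9.35% and 27.3%. The summed signal of that list was 54221 and 36767 for RA, and 61365 and 22108 for Ro. The part of these markers in the members' differences was not tested.

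From the further lists, the genes with the largest RA minus Ro differences were named. Among further HIF targets these were Ak4, a mitochondrial adenylate kinase, with a log2 difference of 1.24 (SE 0.97), Ankrd37, with 0.81 (SE 0.70), and Stc2 and Bhlhe40, with 0.60 and -0.60. Ak4 had 67.6 and 62.7 in RA against 23.1 and 28.8 in Ro, and 43.8 and 498 in Control. This is the order seen for Bnip3 and P4ha2. In all, 7 of 21 further HIF targets were higher and 2 lower in RA without overlap, against 9.35% and 27.3% of all tested probe sets, with a median of 0.03. Among HIF pathway regulators, Arnt2 had -1.11 (SE 0.72), Epas1, which encodes another HIF alpha subunit, 0.75 (SE 0.74) and Hif3a 0.53 (SE 0.80). Of these 3, Hif3a alone had arrays that did not overlap. Arnt2 was dim, at 10.9 and 2.05 in RA and 9.31 and 23.5 in Ro, against an array median of 19.8. The lower RA value was below the pseudocount, so the Arnt2 difference rests on signals near background. Of the 14 regulators, 5 were lower in RA without overlap and 1 was higher, shares near those of all tested probe sets (27.3% and 9.35%). Among glycolysis branches, the gluconeogenic Fbp1 had 0.99 (SE 0.66), and the kinases Hk3 and Adpgk had -0.88 each (SE 0.48 and 0.52). The pentose phosphate genes gave smaller values, -0.30 (Rpe), -0.14 (Rpia) and -0.13 (Taldo1). In the citrate cycle, Dlst had -0.50 and Ogdh -0.36, both without overlap, and Idh3g and Sdhc had 0.18 and -0.18. For each of these lists, limma over the 6 arrays called 0 genes at adjusted p and gave 0 at an unadjusted p under 0.05. The shares of all tested probe sets were 0% and 2.01%.

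RA and Ro were each also set against Control. The members were lower by median, at -0.48 in RA and -0.71 in Ro, against 0.12 and 0.21 over all tested probe sets. P4ha2 had a log2 difference of -2.67 (SE 1.09) in Ro and -1.53 (SE 1.09) in RA, and Egln3 had -2.73 (SE 1.63) and -2.20 (SE 1.63). With all 6 arrays, limma called 0 of 31 members and 0% of probe sets in both comparisons. Before adjustment it put 0 members under 0.05 for RA (2.65% of probe sets) and 1 for Ro (8.77%), which was P4ha2 (limma adjusted p = 0.516). The Control arrays are shared by both comparisons, so the 2 sets of values are not independent.

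Without overlap, RA was higher than Control for Pdk1 and Pfkfb4 (22.4% of probe sets) and lower for 0 members (9.51%). Ro was higher for Pfkfb4 (30.9%) and lower for Bnip3, P4ha2, Ddit4 and Tpi1 (9.50%). For these 4 genes both Ro arrays thus lay below both Control arrays, the lower of which was Control replicate 1. Scaling moved these counts. As deposited, 1 member was higher and 6 lower in RA (9.93% and 15.1% of probe sets) and 1 higher and 8 lower in Ro (26.0% and 9.73%). With the trimmed mean, 1 was higher and 2 lower in RA (12.7% and 16.0%) and 0 higher and 13 lower in Ro (13.4% and 21.5%). With quantile normalization, 1 was higher and 2 lower in RA (15.3% and 13.8%) and 0 higher and 12 lower in Ro (17.3% and 16.0%).

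The direction against Control depended on which Control array was used. Without Control replicate 2 the members' median log2 difference was 0.38 in RA and 0.15 in Ro, and without Control replicate 1 it was -1.32 and -1.64. Against Control replicate 2 alone, limma called 19 members lower in RA, against 4.06% of probe sets called lower, and 21 lower in Ro, against 4.57%. A lone Control array is there assumed to vary like the other groups. The fit without Control replicate 2 makes the same assumption, and a count of 0 called members in it does not set the members apart from other probe sets. Without Control replicate 2, limma called 0 members in either comparison, and before adjustment it put 2 members under 0.05 for RA (1.72% of probe sets) and 1 for Ro (5.24%).

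Among the 5 arrays other than Control replicate 2, RA replicate 1 was highest for 14 members (45.2%, against 21.5% of all tested probe sets) and Control replicate 1 lowest for 12 (38.7%, against 30.5%). Both RA arrays were above Control replicate 1 for 25 of 31 members (80.6%), against 42.5%, and both Ro arrays for 15 (48.4%), against 51.6%. With scaling to the trimmed mean those counts were 16 and 3, against 26.4% and 23.8% of all tested probe sets, and as deposited 13 and 8, against 15.9% and 34.3%. With quantile normalization they were 16 and 4, against 32.0% and 31.5%. The members varied little within the treated groups: the median ratio of the higher to the lower array was 1.21 in RA and 1.25 in Ro, and 3.40 in Control, against 1.27, 1.31 and 1.62 over all tested probe sets.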

How the data were processed

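RNA of cultured mouse CD4+ T cells was measured on 6 arrays, 2 in each of 3 groups taken from the sample titles. The deposited values are linear probe set intensities. The authors used MAS5 (per the submitters' processing notes), its version and scaling target being not given in the sources used here. Array medians were 16.2 to 23.7 before scaling.

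Each array was multiplied so that its median over the probe sets other than 64 array controls, of 45101 in all, equalled the geometric mean of the 6 medians (19.8). Values were taken as log2(scaled signal + 2.99), the pseudocount being the 20th percentile of all scaled values, so fold changes of dim genes are understated. Probe sets above the 40th percentile of their array on at least 2 arrays were tested with limma 3.58.1 (R 4.3.3; lmFit and eBayes with an intensity trend, all 6 arrays, 3 residual degrees of freedom, two-sided, Benjamini-Hochberg over all tested probe sets, threshold 0.05), after the procedure was tested on simulated data. The 6 arrays are few, which limits the precision. Genes were named from the platform annotation, which gives 34958 probe sets 1 symbol, 932 several and 9211 none.

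The members, lists and comparisons were chosen with earlier results of these data known. Values on every array are given for members whose RA and Ro arrays did not overlap and differed by 0.5 or more on the log2 scale, for Hif1a and for 1 member of each role. Slc2a1, Hk2 and Pdk1 were picked for their roles after their values were seen. From each further list of a pathway, up to 3 tested genes with the largest RA minus Ro difference are named, both where 2 tied; the other genes named were chosen after their values were seen. The alternatives tried were the scaling, the pseudocount, the filter, the intensity trend, the arrays in the fit, a replicate block, the mean over a gene's probe sets and leaving out each array.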

Additional observations from a re-analysis of the deposited data

How the results depend on the processing

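Scaling to the trimmed mean gave a median RA minus Ro difference over the members of 0.31, and 16 members higher and 2 lower without overlap, as did quantile normalization. Hif1a, RA minus Ro, was 0.07 with the trimmed mean and 0.35 as the mean over its probe sets, against -0.09, and Pdk1 was -0.04 as deposited, against 0.07. For RA minus Control, 1 member was higher without overlap as deposited, with the trimmed mean and with quantile normalization. Lower there were 6 as deposited and 2 with the trimmed mean, with quantile normalization and with the mean over probe sets. For Ro minus Control, 8 were lower as deposited, 13 with the trimmed mean, 12 with quantile normalization and 7 with the mean over probe sets, while 0 were higher with the trimmed mean and quantile normalization and 2 with the mean over probe sets. Both RA arrays were above Control replicate 1 for 13 members as deposited and 16 with the other 2 scalings. Both Ro arrays were above it for 8 as deposited, 3 with the trimmed mean and 4 with quantile normalization. The alternative scalings of counts that involve a single Control array were chosen after seeing the data; by them, 24 to 28 members were highest on Control replicate 2 and 15 to 19 at least 2-fold above every other array. The cause of these shifts was not tested.

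The replicate numbers were not shown to pair the arrays: deviations from the group means correlated at 0.249 between RA and Ro, 0.008 between RA and Control and -0.027 between Ro and Control. With a replicate block over all 6 arrays, limma called 0 probe sets. With a replicate block and only the 4 arrays compared, it called 133 probe sets for RA minus Ro (0.477%), of which 1 was a member, Bnip3 (limma adjusted p = 0.0273, against 0.0273 to 1 for members over all settings of this comparison). It called 5 for RA minus Control and 1 for Ro minus Control. Without the block, the 4 arrays gave 8 calls for RA minus Ro.

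Leaving out each array in turn gave 0 to 5 called probe sets for RA minus Ro, 0 to 3299 for RA minus Control with 0 to 19 members, and 0 to 4966 for Ro minus Control with 0 to 21 members; the upper ends are without Control replicate 1. Median differences ran from 0.04 to 0.29 for RA minus Ro, from -1.32 to 0.38 for RA minus Control and from -1.64 to 0.15 for Ro minus Control. For RA minus Ro, Hif1a ran from -0.19 to 0.00, Slc2a1 from -0.02 to 0.32 and Pdk1 from -0.53 to 0.67. The other named members kept their sign, with 0.07 to 0.39 for Hk2, 0.28 to 1.36 for Ddit4, 0.26 to 1.32 for Vegfa, 0.13 to 0.92 for Pfkl, 0.18 to 0.88 for Egln3, 1.06 to 1.41 for Bnip3, 0.96 to 1.32 for P4ha2, 0.75 to 1.00 for Tpi1 and -1.08 to -0.62 for Ndrg1. For RA minus Control the ranges, from without Control replicate 1 to without Control replicate 2, were -5.16 to 0.77 for Egln3, -2.57 to 0.97 for Bnip3, -2.38 to 0.90 for Vegfa, -2.54 to 0.18 for Ndrg1, -3.44 to 0.38 for P4ha2 and -1.27 to 0.39 for Ddit4. They were -1.32 to 0.55 for Pfkl, -1.37 to 0.72 for Tpi1, -0.59 to 0.02 for Hif1a, -2.71 to 0.08 for Slc2a1 and -3.53 to 0.20 for Hk2. For Ro minus Control they were -5.69 to 0.24 for Egln3, -3.17 to 0.11 for Vegfa, -1.69 to 1.03 for Ndrg1, -1.84 to 0.02 for Pfkl and -0.49 to 0.11 for Hif1a.

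Counts without overlap are not given where an array of the compared groups is left out, and the mean over probe sets gives no count of calls. With 2 arrays a group, 1 of which stands apart, the comparisons with Control rest on which Control array is used. Dim members such as Adm, Eno2, P4ha2 and Vegfa lie closest to background, and array signals carry no depth.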
